A study of Bos taurus with 4 samples.

Results

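DEAD and DEAH box proteins are RNA helicases named after a short amino acid motif of their ATPase core. The family was followed on 4 two-colour arrays through every mouse cDNA clone whose platform annotation gave 1 symbol beginning with Ddx or Dhx and a digit, Ddx3x left out. This gave 71 clones of 38 genes, of 35964 library clones and 11835 genes with 1 symbol. One clone identifier of Ddx5 was printed on 2 spots, which were averaged. The files give 15 of the genes 1 clone, 15 genes 2 clones, 6 genes 3 clones and 2 genes, Ddx17 and Dhx29, 4 clones. Clones of 1 gene share a transcript and are not replicates of the treatment. A bovine gene with the same symbol was found in RefSeq's ARS-UCD2.0 gene table for 37 of the 38 genes, all but Ddx58.

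The tested RNA came from chromaffin cells of cattle, adrenal medulla cells that secrete catecholamines, given 100 ng/ml PACAP for 6 h at 37 C in culture. PACAP is a neuropeptide that acts through receptors coupled to cyclic AMP. Control RNA came from chromaffin cells of the same repeat number without the peptide, and each of the 4 biological repeats used 1 array, with PACAP RNA in Cy5 and control RNA in Cy3. The labels' tissue entry reads brain, and no array had the dyes exchanged. Mouse clones were read here with bovine RNA, so a weak signal may also come from a poorly conserved clone, which was not tested. In these total RNA samples, fewer cells of a type and less RNA per cell cannot be told apart.

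DEAD and DEAH box proteins use ATP to pull short RNA duplexes apart or to strip proteins from RNA, and most act at 1 step of an RNA's life. Many work in the nucleolus on ribosome assembly, others drive the spliceosome through its rearrangements, and others export, translate, repress or sense RNA. DEAD box members usually open short duplexes locally, whereas DEAH box members can move along a strand.

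Detection differed between the arrays and channels. Of the 72 helicase spots, 70 to 72 exceeded 2 background SD in the PACAP channel on every array, against 62, 53, 40 and 71 in the control channel on repeats 1 to 4. The library as a whole showed the same order, with 80.3, 52.7, 45.4 and 94.7% of its spots above that level in the control channel, and blank spots reached it in at most 6.12% of cases in the PACAP channel and 2.34% in the control channel. Of the 71 helicase clones, 36 exceeded background in both channels on all 4 arrays, and no clone was below it on every array in either channel. Ratios of all tested clones correlated between repeats 1, 2 and 3 (Pearson r of 0.232, 0.296 and 0.385 across clones), but not with repeat 4 (r of -0.016 with repeat 1, -0.128 with repeat 2 and -0.0078 with repeat 3). For the helicase clones the 6 values lay between 0.097 and 0.323. Clones share their array, print and labelling, so these correlations describe the arrays only. The chromaffin genes tyrosine hydroxylase (Th), Chga, Chgb, Penk and Ddc were above background in the control channel on 3 or more arrays. Scg2, above it on 2 arrays, and Slc18a1, above it on 1, fell short of that limit. The median ratio of the 10 chromaffin clones was -0.063 on the log2 scale, with 5 means above 0 and 5 below. Their means ran from -0.69 for a Chga clone to 1.84 for the Scg2 clone. At an unadjusted p under 0.05 in limma, 3 were higher and 1 lower (30 and 10%, against 3.92 and 6.46% of all clones). None had an adjusted p under 0.05. Dbh and Pnmt, enzymes of noradrenaline and adrenaline synthesis, are not analysed here. Markers of adrenal cortex, fibroblasts and endothelium were measured for 5 of 6, 4 of 5 and 3 of 4 listed genes, of which 4, 4 and 2 met the same limit in the control channel, with median ratios of -0.26, -0.094 and -0.0029 on the log2 scale. The part of these cells in the helicase values was not tested.

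No helicase clone passed the adjusted test, and none did among all clones tested. All 71 helicase clones entered the limma fit of 35112 clones, in which 0 clones had an adjusted p under 0.05 (percent called 0). The smallest adjusted p of a helicase clone was 0.454. An unadjusted p under 0.05 was found for 12 of 71 helicase clones, or 16.9%, against 3647 of all clones, or 10.4%. The clones higher with PACAP at that level numbered 9, or 12.7%, against a background of 3.92% of all clones, and those lower with PACAP 3, or 4.23%, against 6.46%. The higher clones included every clone of Ddx10 and of Ddx18, so they are not 9 separate genes. Ddx10 AI847461, Ddx18 AU016519, Ddx21 AI836083 and Dhx29 AI844050 among them had a control signal above background on 1 array only. The other higher clones had one on 3 or more arrays. A mean ratio above 0 was found for 42 of 71 helicase clones, or 59.2%, against 48.6% of all clones. The median over helicase clones of the mean log2(PACAP / control) was 0.045, against -0.014 over all clones tested. The share of helicase clones higher at the unadjusted level exceeded the background here, but it rested on the arrays and the normalisation: without repeat 2 it was 2.82% against 2.46% of all clones, and with print-tip loess 5.63% against 4.39%. The middle of the family lay close to that of the array.

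**Figure D1:**
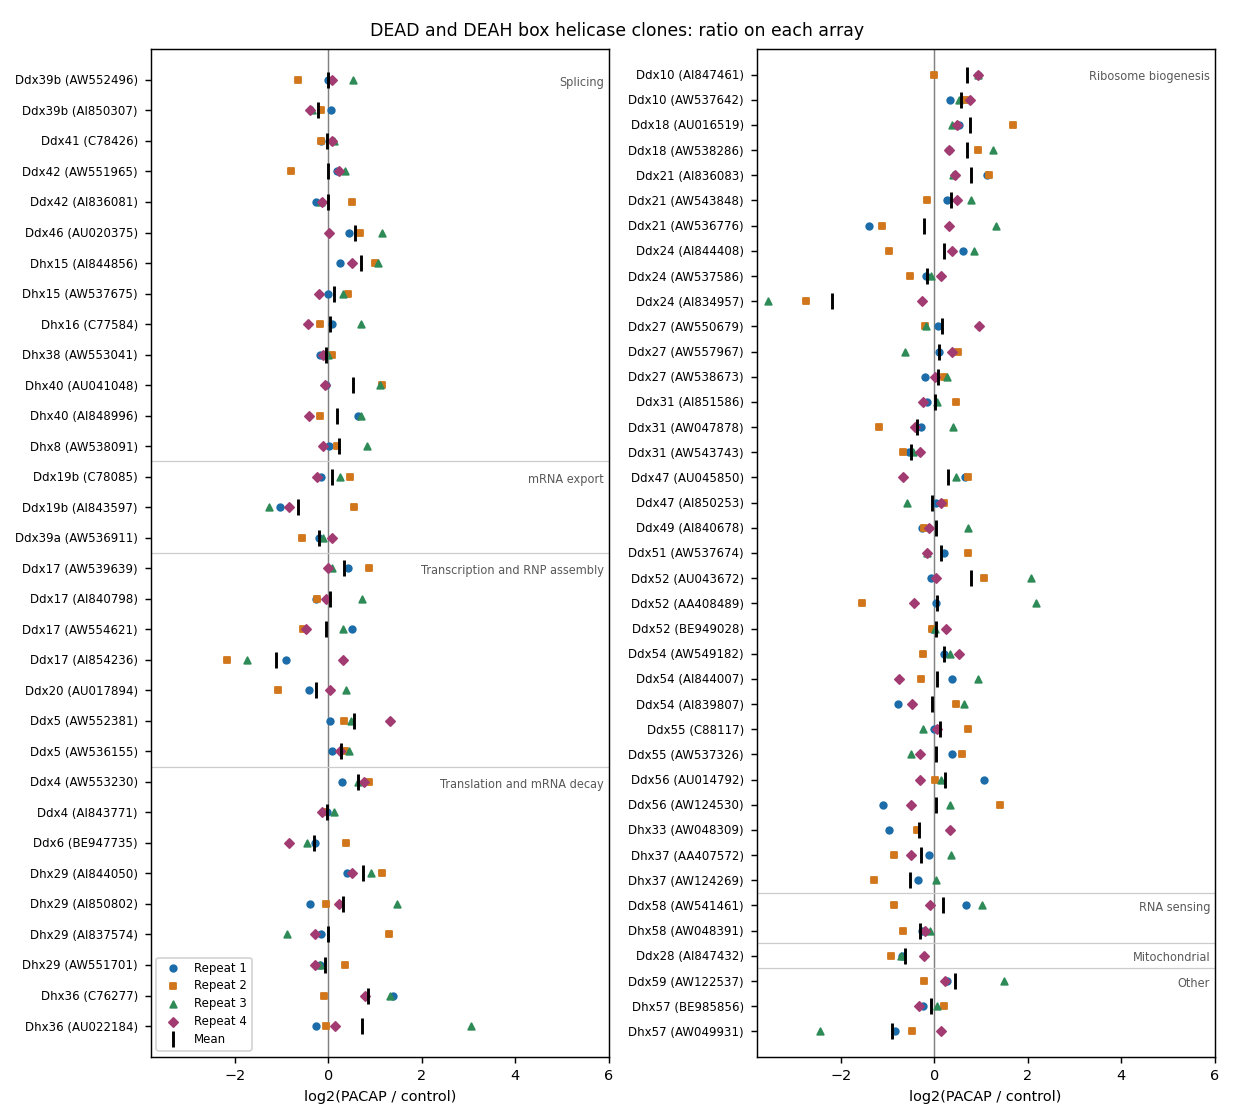
Each row is 1 helicase clone and each symbol its normalised log2(PACAP / control) on 1 of the 4 arrays, with a black bar at the mean; clones are ordered by role and gene. The arrays of a clone scatter widely around 0, and the Ddx24 clone AI834957 at the far left reached -3.56 on repeat 3.

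The ribosome biogenesis helicases were the largest role group, with 33 clones of 15 genes. These were Ddx10, Ddx18, Ddx21, Ddx24, Ddx27, Ddx31, Ddx47, Ddx49, Ddx51, Ddx52, Ddx54, Ddx55, Ddx56, Dhx33 and Dhx37. Of the 33 clones, 23 had a mean above 0, where 48.6% of all clones lay, and 10 below it. An unadjusted p under 0.05 was reached by 6, of which 5 lay above 0 and 1 below (15.2 and 3.03%, against 3.92 and 6.46% of all clones). The 5 were clones of Ddx10, Ddx18 and Ddx21 only. The median was 0.069 on the log2 scale.

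Ddx10 and Ddx18, both nucleolar helicases required for making ribosomal subunits, were higher with PACAP in each of their clones on each array. The Ddx10 clone AW537642 gave log2 ratios of 0.33, 0.68, 0.52 and 0.77 on repeats 1 to 4, a mean of 0.58 ± 0.19 (SD, n = 4; 1.49-fold, unadjusted p = 0.0404, adjusted p = 0.47). Its other clone, AI847461, gave 0.93, 0.0016, 0.93 and 0.95, a mean of 0.70 ± 0.47 (1.63-fold, unadjusted p = 0.0308, adjusted p = 0.455). The first clone was above background in both channels on all 4 arrays, whereas the second was above it in the control channel on 1 array only. The Ddx18 clone AW538286 gave 0.32, 0.93, 1.26 and 0.32, a mean of 0.71 ± 0.47 (1.64-fold, unadjusted p = 0.0293, adjusted p = 0.455), and was detected in both channels on every array. The Ddx18 clone AU016519 gave 0.53, 1.68, 0.38 and 0.48, a mean of 0.77 ± 0.61 (1.70-fold, unadjusted p = 0.0309, adjusted p = 0.455), with the control channel above background on 1 array. None of these 4 clones passed the adjusted test, and all 16 of their array values lay above 0, 1 of them only at 0.0016.

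In deposited signal, before normalisation, the Ddx18 clone AW538286 had 1372, 1103, 496 and 1032 units in PACAP RNA on repeats 1 to 4, against 609, 261, 139.5 and 1867 units in control RNA. The Ddx10 clone AW537642 had 1074, 709.5, 370.1 and 710.1 units in PACAP RNA, against 499.6, 237, 177 and 961 units in control RNA. On repeat 4 the control signal was the brighter one for both, as it was for the library as a whole, whose median was 261 units in PACAP RNA and 579 units in control RNA on that array. The ratios above 0 on repeat 4 are therefore relative to the other clones of the array.

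**Figure D2:**
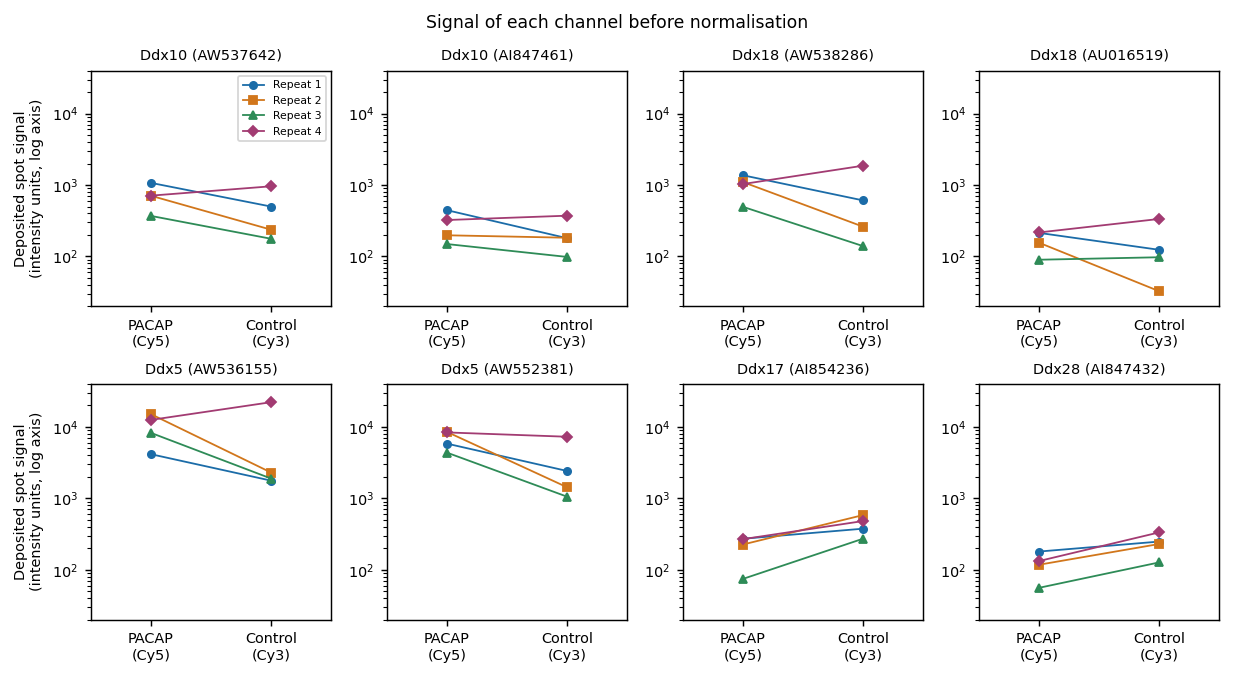
Deposited spot signal on a log axis in PACAP RNA (Cy5, left) and control RNA (Cy3, right) for 8 clones, with 1 line per repeat, before normalisation between the dyes. Repeat 4 is brighter on the control side in every panel except the Ddx5 clone AW552381, and repeats 1 to 3 are brighter on the PACAP side for Ddx10, Ddx18 and Ddx5 except repeat 3 of the Ddx18 clone AU016519.

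Ddx21, a nucleolar helicase that links ribosomal RNA transcription and processing, gave different answers in its 3 clones. Clone AI836083 gave 1.14, 1.17, 0.40 and 0.44, a mean of 0.79 ± 0.42 (SD, n = 4; 1.73-fold, unadjusted p = 0.0166, adjusted p = 0.454), the smallest p in the higher direction in the family. Its control channel was above background on 1 array. The brightest clone, AW543848, gave 0.28, -0.16, 0.79 and 0.48 (mean 0.35 ± 0.40, unadjusted p = 0.214), and clone AW536776 gave -1.40, -1.12, 1.31 and 0.31 (mean -0.22 ± 1.27, unadjusted p = 0.628). The control signal of AW536776 on repeat 3 was at the floor of 1 unit, so its ratio there is set by that floor, and without repeat 3 its mean was -0.74.

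Ddx24, another nucleolar helicase, held the lowest ratio of the family, in a clone with very small spots. Clone AI834957 had a median spot area of 11 pixels, had no spot on repeat 1, and gave -2.74, -3.56 and -0.25 on the other repeats, a mean of -2.18 ± 1.72 (SD, n = 3; unadjusted p = 0.00771, adjusted p = 0.454). Its signals were 174, 68.6 and 398.5 units in PACAP RNA on repeats 2 to 4, against 692, 639.8 and 1094 units in control RNA. The other Ddx24 clones did not share it: AW537586 gave -0.17, -0.52, -0.061 and 0.15 (mean -0.15 ± 0.28) and AI844408 gave 0.61, -0.97, 0.84 and 0.37 (mean 0.21 ± 0.81). Clones AI834957 and AW537586 are titled DEAD/H box polypeptide 13 (RNA helicase A), and AI844408 is titled as a RIKEN cDNA. Whether these titles name the gene of the symbol was not checked.

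The remaining genes with 3 clones stayed near 0 or split between clones. Ddx27 clone AW538673 gave -0.20, 0.22, 0.27 and 0.024 (mean 0.078 ± 0.22), AW557967 gave 0.10, 0.51, -0.62 and 0.38 (mean 0.093 ± 0.50), and AW550679 gave 0.087, -0.20, -0.17 and 0.96 (mean 0.17 ± 0.54). For Ddx31, clone AW543743 was below 0 on every array at -0.54, -0.66, -0.45 and -0.31 (mean -0.49 ± 0.15, unadjusted p = 0.0676), whereas AW047878 gave -0.29, -1.18, 0.40 and -0.41 (mean -0.37 ± 0.65) and AI851586 gave -0.16, 0.46, 0.062 and -0.25 (mean 0.027 ± 0.32). The 3 Ddx31 clones thus ranged from lower on every array to split evenly around 0. The Ddx52 clones were at -0.043, -0.057, 0.024 and 0.26 for BE949028, at 0.038, -1.55, 2.18 and -0.44 for AA408489, and at -0.062, 1.07, 2.06 and 0.041 for AU043672. The last had a control signal above background on 2 arrays, and the signal behind its 2.06 was 99.9 units in PACAP RNA and 4.8 units in control RNA, close to the floor; without repeat 3 its mean was 0.35. Clone BE949028 carries the title of a carcinoembryonic antigen-related adhesion molecule in the scanner tables, which contradicts its symbol. For Ddx54, clone AI839807 gave -0.78, 0.46, 0.63 and -0.47 (mean -0.04 ± 0.69), AI844007 gave 0.37, -0.28, 0.94 and -0.76 (mean 0.069 ± 0.74), and AW549182 gave 0.21, -0.24, 0.35 and 0.53 (mean 0.21 ± 0.33). Clones of Ddx47, Ddx49, Ddx51, Ddx55, Ddx56, Dhx33 and Dhx37 had means between -0.53 and 0.29, and the largest absolute mean was that of the Dhx37 clone AW124269 (n = 3). The titles of AW124269 and of the single Ddx49 clone, AI840678, also contradict their symbols, naming a JAK3-like kinase and homer 3.

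The splicing helicases gave 13 clones of 9 genes, Ddx39b, Ddx41, Ddx42, Ddx46, Dhx8, Dhx15, Dhx16, Dhx38 and Dhx40. There were 7 means above 0, where 48.6% of all clones lay, 6 below and a median of 0.045. At an unadjusted p under 0.05, 1 clone was higher and 0 lower (7.69 and 0%, against 3.92 and 6.46% of all clones). It was the Dhx15 clone AI844856, for the helicase that takes the spliceosome apart after the reaction, with 0.24, 0.99, 1.06 and 0.51 on repeats 1 to 4 (mean 0.70 ± 0.39, unadjusted p = 0.0258, adjusted p = 0.454). The second Dhx15 clone, AW537675, averaged 0.13 ± 0.28 with 2 arrays on each side of 0. The clone of Ddx46, which acts when the U2 particle joins the branch site, was higher on all 4 arrays at 0.45, 0.67, 1.14 and 0.0082 (mean 0.57 ± 0.47, unadjusted p = 0.0677). The brightest splicing clone, AI850307 of Ddx39b, a helicase of spliceosome assembly and mRNA export, gave 0.053, -0.17, -0.35 and -0.39 (mean -0.21 ± 0.20). The clones of Ddx41 (-0.033 ± 0.15) and of Dhx38 (-0.053 ± 0.12), a driver of the second splicing step, were among the least variable of the family. Clones of Dhx8, which releases spliced mRNA, of Dhx16, of Dhx40 and of Ddx42 had means between -0.011 and 0.53.

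Export helicases gave 3 clones of 2 genes, with a median of -0.20 and no p under 0.05. The Ddx19b clone AI843597, for the helicase that remodels mRNPs at the nuclear pore, was at -1.03, 0.55, -1.27 and -0.84 (mean -0.65 ± 0.82, unadjusted p = 0.0901). Its other clone, C78085, averaged 0.075 ± 0.33. The Ddx39a clone AW536911 gave -0.21, -0.56, -0.11 and 0.088 (mean -0.20 ± 0.27).

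The transcription and RNP assembly group held Ddx5 and Ddx17, paralogous coregulators of transcription that also take part in microRNA processing, and Ddx20 (Gemin3) of the SMN complex, in 7 clones with a median of 0.042. Both Ddx5 clones were higher on every array. Clone AW536155 gave 0.076, 0.35, 0.44 and 0.24 (mean 0.28 ± 0.16, unadjusted p = 0.271) and clone AW552381 gave 0.035, 0.34, 0.50 and 1.32 (mean 0.55 ± 0.55, unadjusted p = 0.089). The 2 spots of AW536155 had 3058, 17608, 8624 and 14006 units and 5258, 12690.4, 7925 and 11051 units in PACAP RNA, against 1304, 2673, 1914 and 25439 units and 2234.5, 1921, 1871 and 18990.4 units in control RNA. Ddx17 was mixed over its 4 clones. Clone AI854236 gave -0.91, -2.16, -1.75 and 0.31, a mean of -1.13 ± 1.09 (SD, n = 4; unadjusted p = 0.0225, adjusted p = 0.454), lower on 3 arrays. Its signals were 272, 225.5, 74.4 and 268 units in PACAP RNA, against 376, 584, 273 and 481 units in control RNA. The other 3 Ddx17 clones were AW539639 at 0.43, 0.86, 0.074 and 0.0043 (mean 0.34 ± 0.39), AI840798 at -0.26, -0.25, 0.72 and -0.05 (mean 0.042 ± 0.46) and AW554621 at 0.50, -0.53, 0.32 and -0.47 (mean -0.045 ± 0.53). The lower clone was thus not matched by the other clones of the gene, of which 1 was higher on all 4 arrays. The Ddx20 clone averaged -0.26 ± 0.62.

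The translation and mRNA decay group had the highest median of the role groups, 0.32 over 9 clones of 4 genes. That value is the mean of 1 clone, AI850802 of Dhx29, whose mean without repeat 3 was -0.071. By array the group median was -0.16, 0.35, 0.63 and 0.15 on repeats 1 to 4. The group had 5 means above 0, where 48.6% of all clones lay, and 3 clones higher at the unadjusted level, or 33.3%, against 3.92% of all clones. Dhx29, which helps the small ribosomal subunit scan structured leaders, had 4 clones. Clone AI844050 gave 0.40, 1.15, 0.92 and 0.50 (mean 0.74 ± 0.35, unadjusted p = 0.0182, adjusted p = 0.454) with the control channel above background on 1 array. Of the other Dhx29 clones, AW551701 gave -0.18, 0.35, -0.17 and -0.27 (mean -0.067 ± 0.28), AI837574 gave -0.16, 1.29, -0.89 and -0.29 (mean -0.013 ± 0.92), and AI850802 gave -0.39, -0.044, 1.47 and 0.23 (mean 0.32 ± 0.81). The first clone was higher on all arrays and the other 3 were not. Both clones of Dhx36, which unwinds G-quadruplexes, had means above 0. Clone C76277 gave 1.40, -0.087, 1.31 and 0.78 (mean 0.85 ± 0.68, 1.80-fold, unadjusted p = 0.0244, adjusted p = 0.454), and clone AU022184 gave -0.27, -0.058, 3.05 and 0.15 (mean 0.72 ± 1.56, unadjusted p = 0.208), so that the second rested on repeat 3. The Ddx4 clone AW553230, for the vasa helicase known from germ cells, gave 0.30, 0.87, 0.63 and 0.75 (mean 0.64 ± 0.25, unadjusted p = 0.0288, adjusted p = 0.454). The other Ddx4 clone, AI843771, averaged -0.029 ± 0.12 and was lower on 3 arrays. Both Ddx4 clones were above background in both channels on all arrays, and whether that signal came from bovine Ddx4 RNA was not tested. The single clone of Ddx6, a helicase of mRNA decapping and P bodies, gave -0.28, 0.37, -0.46 and -0.83 (mean -0.30 ± 0.50).

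The Ddx28 clone AI847432, for a helicase of mitochondrial ribosome assembly, was the only member of its group and was lower on every array. It gave -0.70, -0.92, -0.71 and -0.22, a mean of -0.64 ± 0.30 (SD, n = 4; unadjusted p = 0.032, adjusted p = 0.458), or 1.55-fold lower. Its signals were 179.8, 117.5, 55.8 and 132 units in PACAP RNA, against 248, 229.6, 126.8 and 334 units in control RNA, and the control channel exceeded background on 3 arrays. It was 1 of 3 helicase clones below 0 on all 4 arrays, with the Ddx31 clone AW543743 and the Dhx58 clone AW048391. The sensors of viral RNA, Ddx58 (RIG-I) and Dhx58 (LGP2), averaged 0.19 ± 0.84 and -0.31 ± 0.25, the second at -0.26, -0.67, -0.10 and -0.19. Of the members given no role here, the Ddx59 clone averaged 0.45 ± 0.74. The Dhx57 clone AW049931 gave -0.84, -0.47, -2.44 and 0.15 (mean -0.90 ± 1.11, unadjusted p = 0.0561), and the brighter clone BE985856 gave -0.24, 0.20, 0.064 and -0.33 (mean -0.076 ± 0.25).

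Across the family, 12 of 68 clones with 4 values were higher on all 4 arrays, or 17.6%, against 10.1% of all such clones, and 3 were lower on all 4, or 4.41%, against 8.71%. Of the 23 helicase genes with 2 or more clones, 14 had the means of all their clones on the same side of 0, or 60.9%, against 41.2% of 5937 such genes. All clones were higher on average in 10 of the 23, or 43.5%, against 23.8%, and all were lower in 4, or 17.4%, against 17.4%. Among genes with exactly 2 clones, 12 of 15 helicase genes, or 80%, had both on the same side, against 54%. Of these 23 genes, Ddx10, Ddx18 and Ddx5 had every clone above 0 on every array, and none had every clone below 0 throughout. The share of all genes with several clones that do so was not counted, so whether this is unusual is not known. The genes with 3 or 4 clones had a spread of clone means between 0.092 for Ddx27 and 2.40 for Ddx24 on the log2 scale.

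Repeat 3 stood apart from the other arrays for this family. The median log2 ratio of the helicase clones was 0.35 on repeat 3, with 70% of clones above 0, against -0.0053, -0.044 and 0.0063 on repeats 1, 2 and 4. For all clones tested the median on repeat 3 was -0.0035. On that array 31 helicase clones had a control signal not above background, and their median was 0.63, against 0.26 for all such clones. The 39 helicase clones with a control signal above background had a median of 0.11, against -0.29 for all such clones. Helicase clones with a control signal not above background also had higher medians than all such clones on repeats 1 and 2. These were 0.53 and 0.35, against 0.19 and 0.17. With a control signal above background the medians there were -0.043 and -0.080, against -0.036 and -0.15. The control signal is the denominator of the ratio, so this split depends on the ratio itself. The part of dim control signals was not tested. Without repeat 3, the median over helicase clones was 0.0028, and the clones with an unadjusted p under 0.05 numbered 4. Of these, 3 were higher (4.23%, against 1.99% of all clones) and 1 lower (1.41%, against 3.23%). Among the 36 helicase clones above background in both channels on all arrays, 21 means were above 0 and 15 below, and the median was 0.077. For 10895 such clones of the array, 4750 means were above 0 and 6145 below, and the median was -0.057. Without repeat 4, the array whose ratios did not correlate with the others over all clones, the helicase median was 0.11 and the clones with an unadjusted p under 0.05 numbered 11. Of these, 7 were higher (9.86%, against 4.87% of all clones) and 4 lower (5.63%, against 9.8%). Of the 36 clones detected throughout, 4 were higher at the unadjusted level and 1 lower (11.1 and 2.78%, against 3.23 and 7.97% of the 10895).

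**Figure D3:**
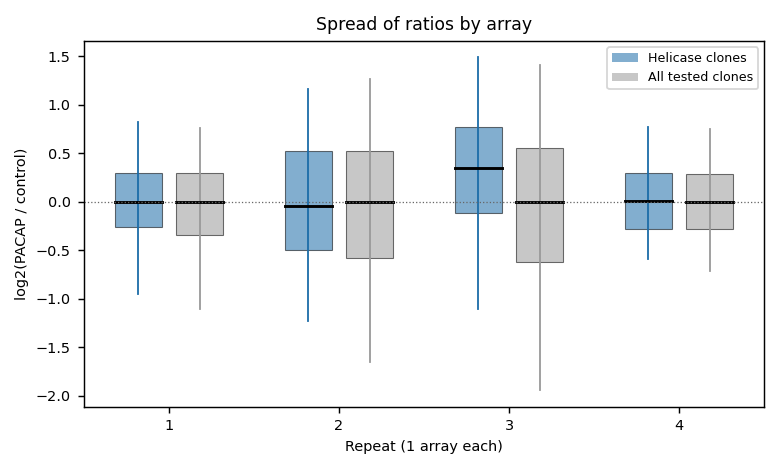
Boxes give the 25th to 75th percentile of log2(PACAP / control) on each array, lines the 5th to 95th, and bars the median, for helicase clones (left of each pair) and all tested clones (right). The helicase median lies at 0.35 on repeat 3 and within 0.044 of 0 on the other arrays.

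The side of 0 changed for most helicase clones in 1 or more of the processing alternatives. How many of all clones do so was not counted, so whether helicases differ in this is not known. Of the 71 clones, 25 kept their side of 0 in every processing alternative that measured them. Under the deposited log2 ratios, centred on the median of each array, 26 clones lay on the other side, and the median over helicase clones was -0.48, against -0.28 over all clones. Both Ddx5 clones were at -2.24 and -2.10 there, and the Ddx18 clone AW538286 was at -0.11, whereas the Ddx10 clones stayed above 0 in every alternative (0.14 to 0.82 for AW537642 and 0.43 to 3.55 for AI847461). The Ddx28 clone stayed below 0 in every alternative, between -0.99 and -0.38, and the lower Ddx17 clone between -1.61 and -0.64. With median centring in place of loess, 20 clones changed side and the helicase median was 0.26. No helicase clone passed the adjusted test in any alternative. The smallest adjusted p in the limma fits was 0.076, without repeat 4. It was that of the Ddx24 clone AI834957 with the very small spots, which then rested on repeats 2 and 3 alone.

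**Figure D4:**
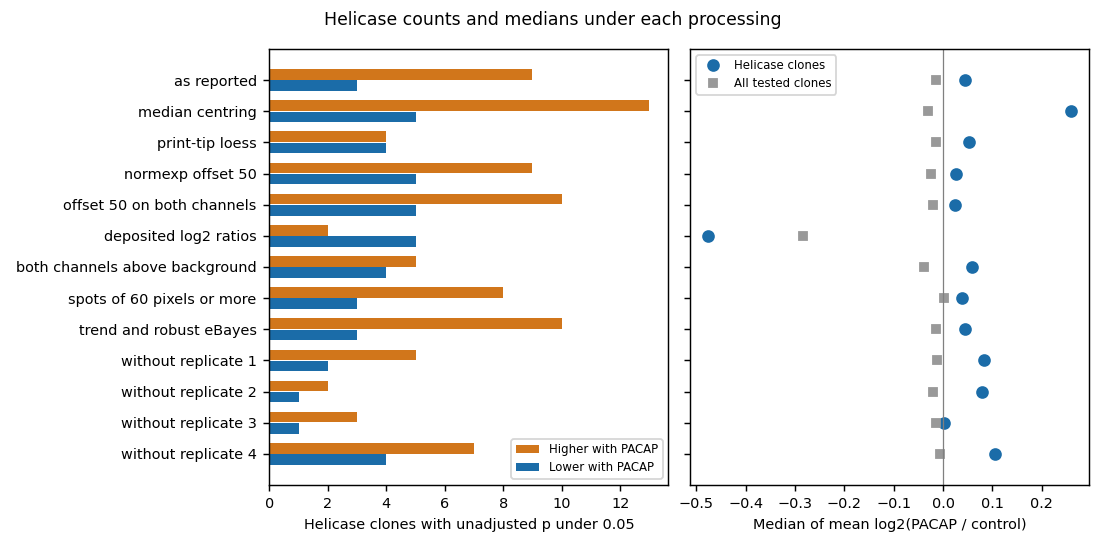
The left panel counts helicase clones with an unadjusted p under 0.05 that were higher or lower with PACAP under each processing, and the right panel gives the median of the mean log2(PACAP / control) for helicase clones and for all tested clones. Higher clones number 9 as reported and between 2 and 13 otherwise, and the helicase median runs from -0.48 with the deposited ratios to 0.26 with median centring.

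RNA helicases without a Ddx or Dhx symbol were measured for 14 of 26 listed genes in 31 clones. Their median was -0.076 on the log2 scale, with 3 clones higher at the unadjusted level and 0 lower (9.68 and 0%, against 3.92 and 6.46% of all clones). The Mtrex clone AW489417, for the helicase that feeds RNA to the nuclear exosome, averaged 0.87 ± 0.46 (higher on 4 of 4 arrays, adjusted p = 0.454). Of the other Mtrex clones, AW550121 averaged 0.57 ± 0.53, AW536721 0.22 ± 0.62 and NIA6C16 -0.32 ± 0.52. The Eif4a1 clone AW538002, for the DEAD box protein of translation initiation, averaged 0.73 ± 0.25 (higher on 4 of 4 arrays, adjusted p = 0.454). Other Eif4a1 clones averaged 0.56 ± 0.30 (AW539329) and -0.10 ± 0.41 (AW048169). The Supv3l1 clone AW049440, for a mitochondrial RNA helicase, averaged 0.60 ± 0.40 (adjusted p = 0.476), while another clone of that gene, C80184, averaged -0.45 ± 0.61. In the lower direction, the clone of Snrnp200, the spliceosomal helicase that unwinds U4/U6, and the Mov10 clone C77703 averaged -0.57 ± 0.48 and -0.52 ± 0.48. Both were below 0 on all 4 arrays, with adjusted p of 0.488 and 0.512. The other Mov10 clone, AW555320, averaged -0.11 ± 0.32 and was above 0 on 1 array.

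Partners of the helicases, from scaffolds of translation initiation to G-patch cofactors, were measured for 44 of 51 listed genes in 91 clones. Their median was 0.077, with 7 clones higher at the unadjusted level and 0 lower (7.69 and 0%, against 3.92 and 6.46% of all clones). Of those 7, 5 were clones of 1 gene, Eif4g2, and none passed the adjusted test. By smallest p for each gene, the higher clones were those of Eif4g2, a scaffold related to eIF4G (1.00 ± 0.37, clone AU017452), of Smn1, the partner of Ddx20 (0.82 ± 0.64, clone AI849078), and of Eif4g3 (0.67 ± 0.33, clone AW539204). The other Eif4g3 clones averaged -0.12 and 0.0045. In the lower direction, those of smallest p were Sarnp (-0.59 ± 0.63), Gpkow (-0.62 ± 0.62, n = 3) and Eif4b (-0.49 ± 0.50), with unadjusted p between 0.0849 and 0.113. Other clones of these genes lay on both sides of 0. They averaged -0.26, 0.21 and 0.23 for Sarnp, -0.26, -0.20 and 0.27 for Gpkow, and -0.31, -0.20 and 0.061 for Eif4b.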

How the data were processed

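RNA of PACAP-treated bovine chromaffin cells (Cy5) and of control cells (Cy3) was hybridised together to mouse cDNA arrays, 1 array for each of 4 biological repeats, per the labels. The deposited scanner tables give linear signal intensity and local background per channel, a calibrated ratio, spot area in pixels and a quality score, per the file headers. Which image analysis program made them is not stated by labels or headers. Background had already been taken off the deposited mean intensity, as the values show, so no further correction was made. The log2 values deposited for the series, with PACAP over control, were recomputed from the scanner tables as the log2 ratio after a second background subtraction less the log2 of a calibration factor; they were not centred, and served as an alternative after median centring.

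After a floor of 1 on intensities, global loess (span 0.3) was applied array by array to log2(Cy5 / Cy3) in limma 3.58.1 under R 4.3.3. Tables were made in Python 3.11.15 with pandas 2.3.3, numpy 2.4.6 and scipy 1.17.1, and figures with matplotlib 3.10.9. Clones entered the test if 3 or more of the 4 arrays had 1 or both channels above 2 background SD. Spots sharing a clone identifier were averaged. The mean ratio of the 4 arrays was set against 0 in limma (lmFit, then eBayes, 2-sided, no covariate), and p-values were adjusted by Benjamini-Hochberg across all 35112 clones tested. The fit was checked on simulated clones with known changes. The dyes were not swapped on any array, so a dye preference of a clone cannot be told apart from the treatment. The labels do not say that the repeats came from separate animals, so p-values measure only the spread between these arrays, which may be technical.

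Symbols came from the platform annotation supplied with the series table, whose entries were matched to spots through plate and well order. The recomputed and deposited ratios differed by a median of under 0.1 log2 units for 35825 of 35873 entries. That match concerns the position of a spot and not the gene of its clone. The clone identifier equalled the identifier of the annotation for 4 of 72 helicase spots and 2302 of 36096 library spots. Annotation entries with several symbols, 5 of which held a DEAD or DEAH box symbol, were left out, and Ddx3x is not among the members.

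The members, role groups and lists of related genes were chosen with earlier results of these data known. Every gene is named. Values on each array are given for the 6 member clones of smallest p in each direction, for genes with 3 or more clones and for the brightest clone of each role; clones with 1 array apart are given by that value and the range of the others. Ddx10, Ddx18 and Ddx5 as genes with every clone on one side were singled out after their values were seen. The alternatives were median centring, print-tip loess, normexp with offset 50, an offset of 50 on both channels, the deposited log2 ratios, no filter or a stricter one on dim clones, a minimum spot area of 60 pixels, trended and robust eBayes, leaving out each repeat, and averaging the clones of a gene.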

Additional observations from a re-analysis of the deposited data

Results flagged for a closer look

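Among 79 sets of 4 array values examined, 8 held 1 array apart from the other 3 by Dixon's criterion, where chance gives about 1 in 20. The Ddx10 clone AI847461 was at 0.0016 on the log2 scale on repeat 2, against 0.93 to 0.95 on the others, with the control channel above background on 1 array. The Ddx18 clone AU016519 was at 1.6775 on repeat 2, against 0.38 to 0.53, also with 1 such array. The Dhx29 clone AW551701 was at 0.3519 on repeat 2, against -0.27 to -0.17, and the Ddx42 clone AW551965, for a helicase associated with the U2 particle, was at -0.7925 on repeat 2, against 0.19 to 0.35. On repeat 3, the Dhx36 clone AU022184 was at 3.0514, against -0.27 to 0.15, and the Ddx49 clone AI840678 was at 0.7284, against -0.26 to -0.12. The median over all helicase clones was 0.3477 on repeat 3, against -0.044 to 0.0063, and that over ribosome biogenesis clones was also 0.3477, against 0.0016 to 0.049. The control channel was dimmest on repeat 3 among the 4 arrays, and its part in these values was not tested.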

How the results depend on the processing

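The adjusted calls stayed at 0 of 71 helicase clones in every alternative (lowest adjusted p 0.076, without repeat 4, for Ddx24 clone AI834957 on repeats 2 and 3 alone). The limma fit of all clones gave 364 calls with the deposited log2 ratios, 3 with trended and robust eBayes and 0 otherwise. With an unadjusted p under 0.05, the reported 9 helicase clones higher and 3 lower became 4 higher with print-tip loess, 5 higher where both channels had to exceed background, and 5 lower with median centring, with normexp and with an offset of 50 on both channels. Those 5 lower clones were 7.04% of the helicase clones, against 9.69, 6.62 and 6.66% of all clones. The deposited log2 ratios gave 7 such clones, 2 higher and 5 lower (2.82 and 7.04%, against 1.24 and 11.9% of all clones). Leaving out 1 repeat gave 3 to 11 clones in all, 2 to 7 higher and 1 to 4 lower: 7 without repeat 1, 3 without repeat 2, 4 without repeat 3 and 11 without repeat 4. Of all clones, 8.03, 6.11, 5.23 and 14.7% reached that level in these fits, in the same order. The lower clones were 1.41 to 5.63% of the helicase clones, against 3.23 to 9.8% of all clones. The share of helicase clones higher, 12.7% against 3.92% of all clones as reported, was 2.82% against 2.46% without repeat 2, 5.63% against 4.39% with print-tip loess, 2.82% against 1.24% with the deposited ratios, and 7.04 to 18.3% against 2.97 to 7.68% in the other alternatives, apart from 4.23% against 1.99% without repeat 3. The helicase median was 0.26 with median centring, -0.48 with the deposited log2 ratios, and 0.0028 to 0.11 when 1 repeat was left out. Dropping the filter on dim clones changed no value, since every clone with a spot on 3 or more arrays passed it.

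Of 303 pairs of a clone chosen by its p and an alternative, 296 kept their direction and 7 reversed. This count is no measure of stability. The filters on dim clones and trended eBayes leave a clone's mean ratio unchanged. Each fit without 1 repeat shares its other arrays with the reported fit, and a small p favours means far from 0. Over all 71 helicase clones, 25 kept their side of 0 in every alternative that measured them, and the matching share over all clones was not counted. No clone chosen by its p was past the adjusted threshold, so only the direction was at issue, and sizes moved: Ddx31 clone AW543743 was at -0.018 with median centring, against -0.49 as reported, and Ddx21 clone AI836083 had an unadjusted p of 0.145, against 0.0166. With the deposited log2 ratios, Dhx15 clone AI844856 was at -0.58, Ddx4 clone AW553230 at -0.14, Ddx18 clone AW538286 at -0.11, Eif4a1 clone AW538002 at -1.50 and Mov10 clone C77703 at 0.17. With median centring, Snrnp200 clone AW555075 was at 0.23 and Eif4b clone C85189 at 0.40. The cause was not tested. The test was already paired, because each array holds 1 PACAP and 1 control sample and the pair is inside every ratio. Precision is limited by the 4 arrays and, for 9 of the 71 clones, by a control signal above background on 1 array only.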
